A study of Mus musculus with 40 samples.

Results

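The 7 genes described here encode the antigen-presenting MHC class II apparatus of mouse macrophages and the coactivator that switches it on: H2-Aa, H2-Ab1, H2-Eb1, Cd74, H2-DMa, H2-DMb1 and Ciita. They were taken by gene symbol from the 27179 genes of the expression table, and each matched 1 row. The table holds 40 RNA-seq libraries from bone marrow-derived macrophages (BMDMs), which are grown from bone marrow in medium conditioned by L cells as a source of M-CSF. Male mice of a mixed C57BL/6J and 129 background were either wildtype (WT) or CPEB4-KO (Cpeb4-/-), which lack the RNA-binding protein CPEB4, a regulator of mRNA stability and translation, in all cells. BMDMs of each of 4 WT and 4 Cpeb4-/- mice were left untreated (0 hr) or given 10 ng/ml of LPS from E. coli for 1, 3, 6 or 9 hr, so each group of genotype and time holds 4 libraries and every mouse occurs at all 5 times. LPS is an outer membrane component of bacteria that macrophages sense through TLR4. Values are rlog values, a log2 scale corrected for library size on which differences of weakly expressed genes are shrunken, so folds given here can understate those of the mRNA. Read depth is not part of these values.

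MHC class II molecules carry peptides of engulfed proteins to the cell surface, where CD4 T cells read them. Their alpha and beta chains pair in the endoplasmic reticulum with the invariant chain, proteases of the lysosome then cut the invariant chain down to a fragment in the groove, and the DM protein exchanges that fragment for a peptide. Transcription of all these genes depends on CIITA, a coactivator that does not bind DNA itself but docks on RFX, CREB and NF-Y factors at a conserved promoter module of X and Y boxes. In resting macrophages CIITA is induced by interferon gamma, from one of several alternative promoters that the gene-level values used here do not separate.

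The letters of this module were found in the promoter windows of 3 of the 4 members matched there. The RefSeq windows of GRCm38.p6 run from 250 bases before to 50 bases after a transcription start, and H2-Aa, H2-Eb1, H2-DMb1 and H2-DMa were matched in them, as was H2-DMb2, the neighbour of H2-DMb1. In the stretches that follow, the capitals mark the X box letters (TGACGTCA in H2-Aa, GATGATG in the other genes) and the Y box letters TGATTGG, which contain the reverse of the CCAAT motif bound by NF-Y. They are shown because the position and spacing of the boxes are what these genes have in common.
H2-Aa: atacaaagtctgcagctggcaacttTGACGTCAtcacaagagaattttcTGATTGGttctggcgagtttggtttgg
H2-Eb1: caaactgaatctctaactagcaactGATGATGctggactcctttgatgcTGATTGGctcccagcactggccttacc
H2-DMb1: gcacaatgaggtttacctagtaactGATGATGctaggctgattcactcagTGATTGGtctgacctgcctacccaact
H2-DMb2: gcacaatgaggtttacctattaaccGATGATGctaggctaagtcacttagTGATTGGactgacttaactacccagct
The stretches lie at chr17:34287847-34287922 on the minus strand for H2-Aa, and on the plus strand at chr17:34305757-34305832 for H2-Eb1, chr17:34153078-34153154 for H2-DMb1 and chr17:34145107-34145183 for H2-DMb2. Between the end of the X box letters and the start of the Y box letters lay 16 bases in H2-Aa, 17 in H2-Eb1 and 18 in both H2-DMb genes. The X box letters of H2-Aa differ in sequence and length from those of the others, so its distance is not measured from a matching base. The Y box letters began 50 bases before the start site in H2-Aa, 61 in H2-Eb1, 63 in H2-DMb1 and 92 in H2-DMb2. The letters were chosen after reading these windows, and searched on both strands of all 32851 windows they occurred in 7.82% (TGATTGG), 3.48% (GATGATG) and 1.79% (TGACGTCA). The Y box letters and either X box version occurred in the same window, at any spacing and on either strand, in 0.387%. Neither of the 2 windows of H2-DMa, which start at different transcription starts, held any of the 3 strings.

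Of the members, 5 lie within the MHC on chromosome 17 of GRCm38, the build mm10 is based on: H2-DMa from 34119541 to 34139101, H2-DMb1 from 34153072 to 34160230, H2-Ab1 from 34257689 to 34269419, H2-Aa from 34282744 to 34287823 and H2-Eb1 from 34305867 to 34316674, with H2-Aa on the minus strand and the others on the plus strand. Ciita lies on chromosome 16 from 10480059 to 10528418 on the plus strand. Of its 8225 exon bases, 111 (1.3%) are shared with exons of the antisense gene Dexi, and whether strand was used in counting is not given in the sources used here, so reads over these bases cannot be told apart. H2-DMb1 is a close copy of H2-DMb2: 27.2% of the 50-base windows of its main transcript occur unchanged in that of H2-DMb2 (94.4% identity over 1255 aligned bases), and how reads with several matches were treated is not given. H2-DMb2 itself was weakly expressed, with group means from 2.22 to 3.52 on the rlog scale.

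The libraries carry the markers of macrophages at high levels and the defining markers of B cells near the floor, but the marker lists were not equal between genotypes. All 8 macrophage markers passed the filter on low expression, with mean rlog from 9.66 (Mertk) to 18.24 (Lyz2). Of the 8 B cell markers only Cd79b and Cd22 passed, and Pax5, Blk and Ebf1 were near the floor with means from −2.18 to −1.67. Of the 9 dendritic cell markers 7 passed, while Cd209a (mean −0.14) and Flt3 (mean 1.43) did not. Summed on the linear scale, the macrophage list, of which Lyz2 is the main term, was 517000 to 643000 in WT and 412000 to 491000 in Cpeb4-/- BMDMs at 0 hr. The dendritic cell list, of which Itgax is the main term, was 3510 to 4540 in WT and 4190 to 5530 in Cpeb4-/- at 0 hr, and 3140 to 4710 against 3660 to 5520 at 6 hr. T cell, neutrophil, plasmacytoid dendritic cell and fibroblast lists passed with 2 of 6, 4 of 6, 3 of 4 and 1 of 4 markers. Cpeb4 itself, summed over the whole gene with no separate value for the deleted part, had 6 hr levels of 10.45 ± 0.26 for WT against 9.18 ± 0.45 for Cpeb4-/- (mean ± SD, n = 4), where the groups did not overlap. At 0, 1, 3 and 9 hr the 2 genotypes overlapped in Cpeb4, so the gene-level value does not separate the labels there.

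Ranked by level per kilobase of transcript, the members kept one order in every untreated WT and Cpeb4-/- mouse. In untreated WT BMDMs the rlog value per kilobase was 13.39 ± 0.33 (SD, n = 4) for Cd74, 11.46 ± 0.38 for H2-Ab1, 11.20 ± 0.37 for H2-Aa and 10.21 ± 0.40 for H2-Eb1. H2-DMb1 followed with 9.56 ± 0.24, H2-DMa with 8.56 ± 0.28 and Ciita with 5.07 ± 0.20. The groups' SDs overlap for H2-Ab1 and H2-Aa, yet within a mouse H2-Ab1 was above H2-Aa in each, by 0.20 to 0.36. At 9 hr the order was the same in all 8 mice, and the step from H2-DMa down to Ciita had grown from 3.50 to 4.79 in WT and from 3.04 to 4.70 in Cpeb4-/-.

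**Figure D1:**
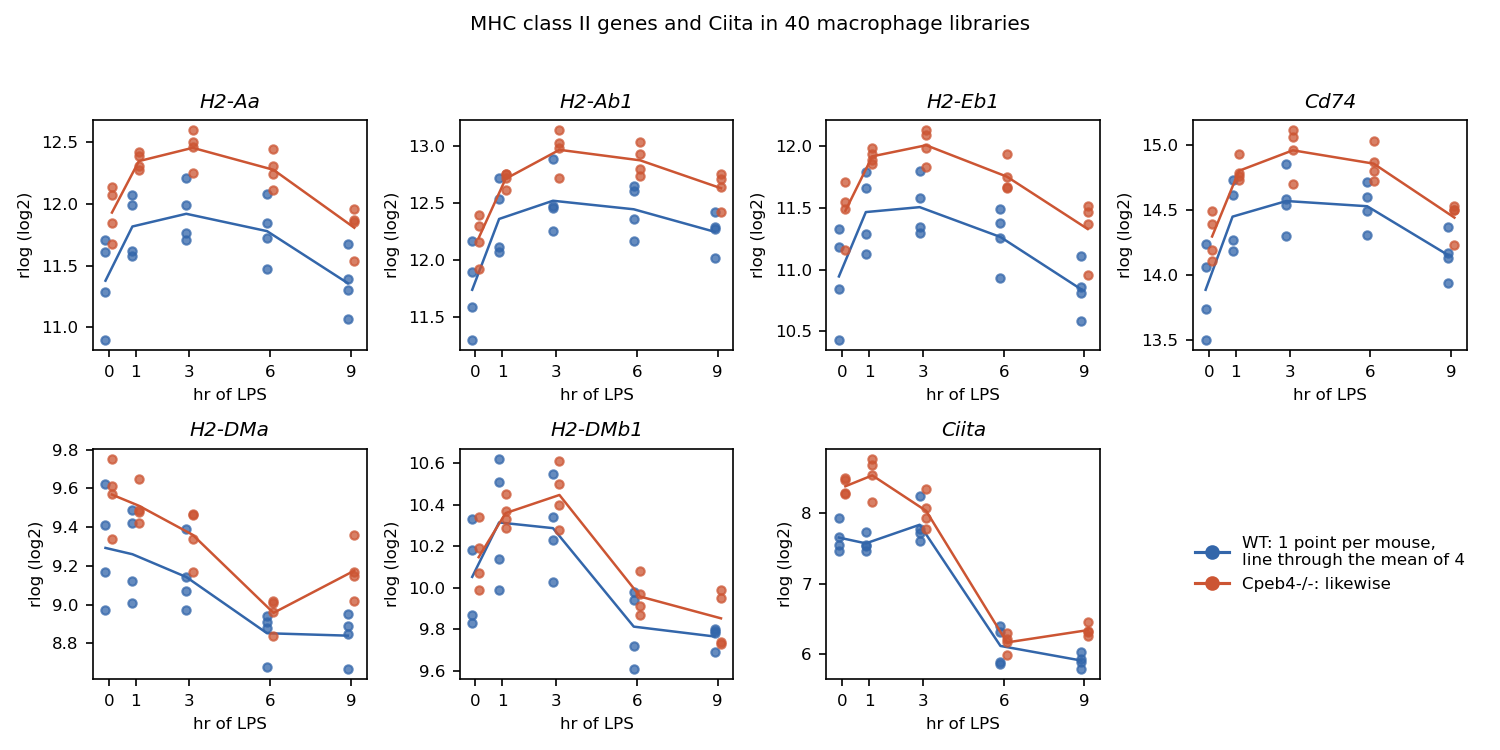
Levels of the 7 genes (y axis, rlog, log2 scale, a separate range per panel) against hours of LPS (x axis), 1 point per library, with lines through the means of 4 WT (blue) and 4 Cpeb4-/- (red) mice. The 3 chain genes and Cd74 rise at 1 and 3 hr and come down by 9 hr, Ciita drops from about 8 to about 6 between 3 and 6 hr, and the red line is above the blue one in every panel at every time.

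The first comparison asks which class II mRNAs differ between WT and Cpeb4-/- BMDMs at each time. All 7 genes had a higher mean in Cpeb4-/- BMDMs at all 5 times, and 14 of the 35 differences passed an adjusted p of 0.05, all of them higher in Cpeb4-/- (limma, adjusted over all genes tested by the Benjamini-Hochberg method). At 0 hr 1 member was called higher (Ciita), where 0.741% of all 13095 genes tested were. At 1 hr 2 were (Ciita and H2-Aa, background 0.976%) and at 3 hr 2 (H2-Aa and H2-Eb1, background 1.81%). At 6 hr 4 were called higher (H2-Aa, H2-Ab1, H2-Eb1 and Cd74, background 6.4%) and at 9 hr 5 (H2-Aa, H2-Ab1, H2-Eb1, Ciita and H2-DMa, background 4.69%). No member was called lower, as 0.565%, 0.938%, 1.87%, 9.92% and 3.22% of all genes were at these times. The median difference of the 7 members was 0.455, 0.356, 0.394, 0.327 and 0.381 at 0, 1, 3, 6 and 9 hr, against medians of all genes tested between −0.015 and 0.016. All 4 Cpeb4-/- libraries were above all 4 WT libraries for 1, 4, 2, 4 and 2 members at these times, where this was so for 5.51%, 7.55%, 7.05%, 8.16% and 8.35% of all genes. The number of calls rests on single mice and on the test: it was 6 without WT mouse 25 or without Cpeb4-/- mouse 62, 7 without Cpeb4-/- mouse 55 or without WT mouse 69, 6 without the mean-variance trend and 1 when weakly expressed genes were kept in the fit. With all 40 libraries in one fit and the mouse as a block it was 20. That fit takes 1 correlation between libraries of a mouse for all genes. The calls of the other class II pathway genes rose in it too, from 12 to 32, and the share of all genes called is not given for it.

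**Figure D2:**
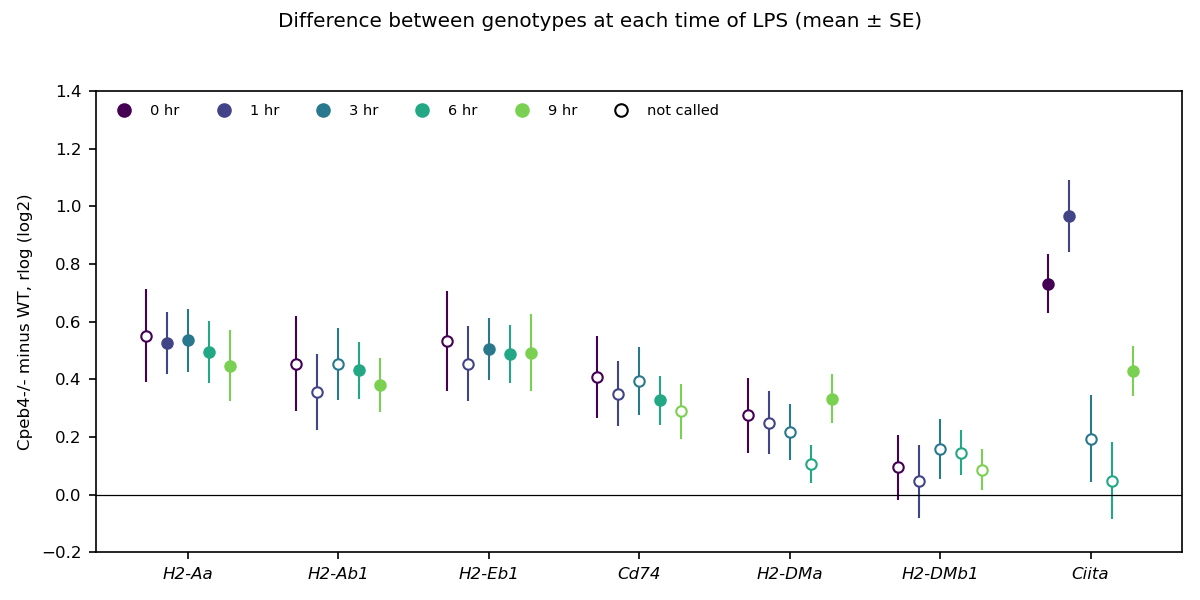
Difference between Cpeb4-/- and WT BMDMs (y axis, rlog, log2 scale, mean ± SE of limma) for each gene (x axis) at 0, 1, 3, 6 and 9 hr of LPS (colours), with filled points for an adjusted p under 0.05 and open points for the others. All 35 points lie above 0; those of Ciita reach 0.97 at 1 hr and come down to 0.05 at 6 hr, whereas those of H2-Aa stay between 0.45 and 0.55.

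Ciita showed the largest difference of the members in untreated cells, and a further one at 1 hr. In the order mouse 25, 69, 87 and 88 for WT and mouse 2, 3, 55 and 62 for Cpeb4-/-, used for all values that follow, untreated WT BMDMs had Ciita at 7.55, 7.47, 7.66 and 7.94 and untreated Cpeb4-/- BMDMs at 8.29, 8.50, 8.27 and 8.48. At 1 hr the values were 7.73, 7.47, 7.54 and 7.55 in WT and 8.16, 8.77, 8.54 and 8.69 in Cpeb4-/-. At both times every Cpeb4-/- library was above every WT library. The difference was 0.73 ± 0.10 at 0 hr (1.66-fold on the rlog scale, limma, adjusted p = 0.0081) and 0.97 ± 0.13 at 1 hr (1.95-fold, adjusted p = 0.009). At 3 hr the genotypes overlapped, with 7.78, 7.72, 7.60 and 8.25 in WT and 7.78, 8.34, 8.08 and 7.94 in Cpeb4-/- (difference 0.20 ± 0.15, adjusted p = 0.44).

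By 6 hr Ciita had fallen in every mouse, further in Cpeb4-/- BMDMs, and the genotypes lay together. Ciita was then at 5.89, 6.40, 5.85 and 6.31 in WT and 5.98, 6.21, 6.29 and 6.17 in Cpeb4-/-, a difference of 0.05 ± 0.13 (adjusted p = 0.85). At 9 hr it was at 5.79, 5.92, 5.89 and 6.02 in WT and 6.31, 6.26, 6.33 and 6.45 in Cpeb4-/-. The groups were apart again at this time, with all 4 Cpeb4-/- values above all 4 WT values and a difference of 0.43 ± 0.09 (adjusted p = 0.017), a call that was lost without WT mouse 25, without WT mouse 87 or without Cpeb4-/- mouse 62. From untreated cells the fall at 6 hr was −1.54 ± 0.14 in WT (0.344 of the untreated level, adjusted p = 9.4e-13) and −2.22 ± 0.14 in Cpeb4-/- (0.214 of it, adjusted p = 3.6e-17), present in 4 of 4 mice of each genotype. The fall from untreated to 9 hr came to −1.75 ± 0.14 in WT BMDMs and −2.05 ± 0.14 in Cpeb4-/- BMDMs.

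Whether the genotype difference of Ciita changed with LPS was tested as an interaction, and it did so at 6 hr. The Cpeb4-/- change from 0 to 6 hr was lower than the WT change by 0.68 on the log2 scale (interaction −0.68 ± 0.19, adjusted p = 0.04), the only interaction called among the 28 of the members, where 2.04% of the 13103 genes tested were called lower at 6 hr and 0.901% higher. At 1, 3 and 9 hr no member was called, and of all genes 0.00763%, 0.13% and 0.771% were called lower and 0%, 0.0763% and 0.992% higher. With the mouse as a block its adjusted p was 0.0055. The call was lost on leaving out any one of 6 mice (all but WT mice 87 and 88), with values from −0.53 to −0.77 over the 8 omissions. At 1, 3 and 9 hr the interaction of Ciita was 0.23 ± 0.19, −0.54 ± 0.19 and −0.30 ± 0.19, with adjusted p from 0.52 to 0.90. The interactions of the other 6 members lay between −0.17 and 0.07.

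H2-Aa encodes the alpha chain of I-A, the only complete class II molecule of mice with the b haplotype, and it differed between genotypes by about the same amount at all times. Untreated WT BMDMs had H2-Aa at 10.90, 11.29, 11.71 and 11.61, and untreated Cpeb4-/- BMDMs at 11.84, 11.67, 12.13 and 12.07. At 1 hr the values were 11.58, 11.62, 12.07 and 11.99 against 12.27, 12.42, 12.30 and 12.38, and at 3 hr 11.76, 11.71, 12.21 and 11.99 against 12.25, 12.50, 12.59 and 12.46. WT mice 25 and 69 were the low pair at these times, and at 1, 3 and 6 hr no WT library reached the lowest Cpeb4-/- library. At 6 hr the WT values of H2-Aa were 11.47, 11.72, 11.84 and 12.08 and the Cpeb4-/- values 12.11, 12.44, 12.24 and 12.30, and at 9 hr they were 11.07, 11.39, 11.30 and 11.67 against 11.85, 11.54, 11.87 and 11.96. At 9 hr Cpeb4-/- mouse 3 fell below WT mouse 88. The difference was 0.55 ± 0.16 at 0 hr, which missed the threshold (adjusted p = 0.12), then 0.53 ± 0.11, 0.54 ± 0.11, 0.49 ± 0.11 and 0.45 ± 0.12 at 1, 3, 6 and 9 hr (limma, adjusted p = 0.045, 0.029, 0.0088 and 0.049). The calls at 1, 3 and 9 hr were each lost on leaving out any one of 5 mice, and that at 6 hr held in all 8 omissions. With all 40 libraries and the mouse as a block the difference at 0 hr was called (adjusted p = 0.011).

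H2-Ab1, the I-A beta chain, ran in parallel at a higher level. Its values at 0 hr were 11.30, 11.59, 12.17 and 11.90 in WT and 12.16, 11.92, 12.40 and 12.30 in Cpeb4-/-. At 1 hr WT had 12.12, 12.07, 12.72 and 12.54 and Cpeb4-/- 12.76, 12.76, 12.62 and 12.72, with WT mouse 87 inside the Cpeb4-/- range, and at 3 hr WT had 12.46, 12.26, 12.89 and 12.48 and Cpeb4-/- 12.72, 13.03, 13.14 and 12.99. At 6 hr the groups were apart, with 12.17, 12.36, 12.61 and 12.65 in WT and 12.74, 13.04, 12.80 and 12.93 in Cpeb4-/-. At 9 hr they met, with WT mouse 88 at the level of Cpeb4-/- mouse 3 (12.02, 12.29, 12.27 and 12.42 in WT, 12.76, 12.42, 12.71 and 12.64 in Cpeb4-/-). The difference passed at 6 hr (0.43 ± 0.10, adjusted p = 0.011) and 9 hr (0.38 ± 0.09, adjusted p = 0.034), and was 0.46 ± 0.16, 0.36 ± 0.13 and 0.45 ± 0.12 at 0, 1 and 3 hr (adjusted p = 0.2, 0.11 and 0.072). The call at 9 hr was lost on leaving out any one of 5 mice. The mouse block brought those at 1 and 3 hr below the threshold (adjusted p = 0.043 and 0.027).

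H2-Eb1 encodes the I-E beta chain, whose partner, the alpha chain gene listed as H2-Ea-ps, is not expressed in C57BL/6 mice and was at the floor here, with group means no higher than −2.04. At 0 hr the WT libraries had H2-Eb1 at 10.43, 10.84, 11.33 and 11.18 and the Cpeb4-/- libraries at 11.49, 11.16, 11.71 and 11.55, and 1 hr of LPS gave 11.13, 11.29, 11.79 and 11.66 against 11.94, 11.99, 11.86 and 11.89. The values of 3 hr were 11.35, 11.30, 11.80 and 11.58 in WT and 11.83, 12.09, 12.13 and 11.99 in Cpeb4-/-. WT mice 25 and 69 were below WT mice 87 and 88 at 0, 1, 3 and 6 hr, and the genotypes did not overlap at 1, 3 and 6 hr. At 6 hr WT had 10.93, 11.26, 11.38 and 11.49 and Cpeb4-/- 11.66, 11.94, 11.67 and 11.75, and at 9 hr WT had 10.58, 10.86, 10.81 and 11.11 and Cpeb4-/- 11.52, 10.96, 11.37 and 11.47, where Cpeb4-/- mouse 3 was within the WT range. The differences of 0.51 ± 0.11, 0.49 ± 0.10 and 0.49 ± 0.13 at 3, 6 and 9 hr passed (adjusted p = 0.034, 0.0074 and 0.047), and those of 0.53 ± 0.17 at 0 hr and 0.46 ± 0.13 at 1 hr did not (adjusted p = 0.16 and 0.076). The call at 3 hr was lost on leaving out any one of 6 mice, that at 9 hr on leaving out any one of 5, and that at 6 hr held in all 8 omissions. With the mouse block all 5 passed, with adjusted p of 0.028 at 0 hr and 0.018 at 1 hr for the added pair.

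Cd74, the invariant chain that guards the peptide groove and guides class II molecules to lysosomes, was the most abundant member and differed less. Untreated libraries had 13.50, 13.74, 14.24 and 14.06 in WT and 14.19, 14.11, 14.49 and 14.39 in Cpeb4-/-. After 1 hr of LPS, Cd74 had WT values of 14.27, 14.18, 14.73 and 14.61 and Cpeb4-/- values of 14.78, 14.93, 14.73 and 14.76, and after 3 hr 14.54, 14.30, 14.85 and 14.58 against 14.70, 15.06, 15.11 and 14.96. The genotypes overlapped at 0 and 3 hr. At 1 hr they were apart by less than the rounding of these values, Cpeb4-/- mouse 55 being just above WT mouse 87. At 6 hr, with 14.31, 14.49, 14.60 and 14.71 in WT and 14.72, 15.03, 14.80 and 14.87 in Cpeb4-/-, the lowest Cpeb4-/- library was just above the highest WT library, and at 9 hr the values were 13.94, 14.17, 14.13 and 14.37 and 14.53, 14.23, 14.50 and 14.50. Only the difference at 6 hr passed (0.33 ± 0.08, 1.25-fold, adjusted p = 0.02), and it was lost with the mouse block (adjusted p = 0.064), without WT mouse 69 and without Cpeb4-/- mouse 3. The other 4 differences were 0.41, 0.35, 0.39 and 0.29 at 0, 1, 3 and 9 hr, of which those at 1 and 3 hr passed with the block (adjusted p = 0.029 and 0.033).

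The DM genes, whose products load peptides onto class II molecules, had the smallest genotype differences of the members when averaged over the 5 times. Untreated WT BMDMs had H2-DMa at 8.97, 9.17, 9.62 and 9.41 and untreated Cpeb4-/- BMDMs at 9.61, 9.34, 9.75 and 9.57, and at 1 hr the values were 9.01, 9.12, 9.49 and 9.42 against 9.65, 9.42, 9.48 and 9.49. At 3 hr its values were 9.07, 8.97, 9.39 and 9.14 in WT and 9.17, 9.34, 9.47 and 9.46 in Cpeb4-/-. The genotypes overlapped at each of these times, WT mouse 87 reaching into the Cpeb4-/- range. By 6 hr WT libraries had 8.68, 8.91, 8.88 and 8.94 and Cpeb4-/- libraries 8.84, 9.01, 9.02 and 8.96, and by 9 hr 8.67, 8.95, 8.89 and 8.85 against 9.36, 9.02, 9.17 and 9.15. The groups were apart at 9 hr alone, where the difference was 0.33 ± 0.08 (adjusted p = 0.039), a call that was lost on leaving out any one of 6 mice. At the other times the difference was between 0.11 and 0.28.

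H2-DMb1 did not pass at any time. Untreated WT libraries had 9.83, 9.87, 10.33 and 10.18 and untreated Cpeb4-/- libraries 10.07, 9.99, 10.34 and 10.19. After 1 hr the values were 10.14, 9.99, 10.62 and 10.51 against 10.45, 10.33, 10.37 and 10.29, and after 3 hr 10.34, 10.03, 10.55 and 10.23 against 10.28, 10.40, 10.61 and 10.50. The Cpeb4-/- values lay within the WT range at 1 hr. At 6 hr WT had 9.61, 9.72, 9.94 and 9.98 and Cpeb4-/- 9.87, 10.08, 9.97 and 9.91, and at 9 hr WT had 9.69, 9.79, 9.80 and 9.78 and Cpeb4-/- 9.99, 9.73, 9.95 and 9.74. The differences lay between 0.05 ± 0.13 at 1 hr and 0.16 ± 0.10 at 3 hr, with adjusted p from 0.24 to 0.81.

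Since each mouse gave all 5 libraries, the difference over the whole time course was tested on the mean of each mouse. Averaged in this way, 6 of the 7 members were higher in Cpeb4-/- BMDMs and H2-DMb1 was not called, where 9.46% of the 13103 genes tested were called higher and 9.62% lower. H2-Aa had mouse means of 11.35, 11.55, 11.83 and 11.87 in WT and 12.06, 12.12, 12.23 and 12.23 in Cpeb4-/-, a difference of 0.51 ± 0.10 (limma, adjusted p = 0.012). Those of Ciita were 6.95, 7.00, 6.91 and 7.21 in WT and 7.30, 7.61, 7.50 and 7.54 in Cpeb4-/-, a difference of 0.47 ± 0.08 (adjusted p = 0.0077). For both genes the lowest Cpeb4-/- mouse was above the highest WT mouse, as it was for H2-Ab1, H2-Eb1 and Cd74, 5 of 7 members against 12.3% of all genes. H2-Ab1 differed by 0.41 ± 0.10, H2-Eb1 by 0.49 ± 0.10, Cd74 by 0.35 ± 0.09 and H2-DMa by 0.24 ± 0.07 (adjusted p = 0.022, 0.015, 0.022 and 0.048). Leaving out Cpeb4-/- mouse 3, 55 or 62 reduced the 6 calls to 3, and the call of H2-DMa was lost without any one of 7 mice.

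**Figure D3:**
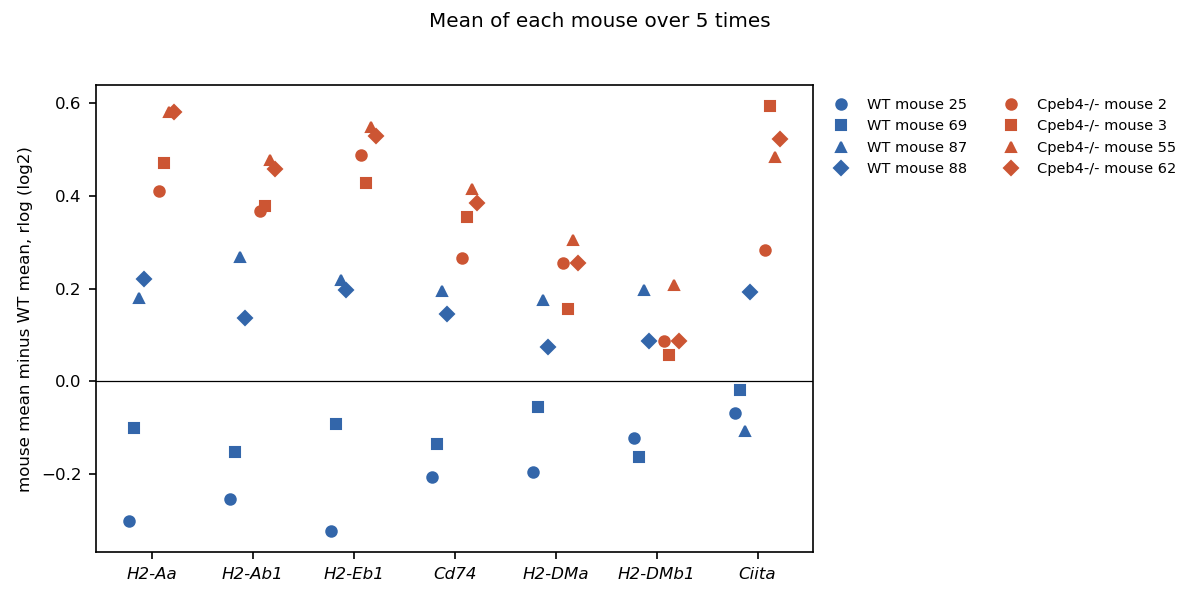
Mean of each mouse over its 5 libraries, minus the mean of the 4 WT mice (y axis, rlog, log2 scale), for the 7 genes (x axis), with WT mice in blue, Cpeb4-/- mice in red and 1 symbol per mouse. WT mice 25 and 69 lie below WT mice 87 and 88 for the 3 chain genes, Cd74 and the DM genes but not in this order for Ciita, and the 4 Cpeb4-/- mice lie above all WT mice for H2-Aa, H2-Ab1, H2-Eb1, Cd74 and Ciita.

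Individual mice carried the class II mRNAs up or down together. WT mouse 25 was the lowest WT mouse for 6 of 7 members at 0 hr and at 6 hr and for all 7 at 9 hr, and mouse 87 the highest for 6 at 0, 1 and 3 hr. Mouse 69 was the lowest for 6 at 3 hr, and mouse 88 the highest for 6 at 6 hr and for 5 at 9 hr. WT mice 87 and 88 are listed in 1 cage (number 9), and mice 25 and 69 each in a cage listed for no other mouse here. At 9 hr mouse 69 was above mouse 87 for H2-Aa (11.39 against 11.30), H2-Ab1, H2-Eb1, Cd74 and H2-DMa. On means over the 5 times, mice 25 and 69 lay below mice 87 and 88 for every member except Ciita. The relation of the order of the WT mice to housing was not tested. Among Cpeb4-/- mice, mouse 2 was the lowest for all 7 members at 3 and at 6 hr, whereas mouse 3, listed in the same cage as mouse 2 (number 104), was the lowest for 6 at 0 hr and all 7 at 9 hr but the highest for 5 at 6 hr. No cage held both genotypes, so cage and genotype cannot be told apart. Each of the 2 batches named in the labels held 2 mice of each genotype: in batch 2 all 35 member differences favoured Cpeb4-/-, from 0.006 to 0.842, and in batch 1 33 of 35 did, the exceptions being H2-DMb1 at 1 hr (−0.015) and at 9 hr (−0.002). The 35 differences of a batch are not independent, as they rest on the same 2 mice per genotype and on genes that vary together. No share of all genes is given for this tally.

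Markers of several cell types moved with the genotype too. Averaged over each mouse, Lyz2, the lysozyme gene, was lower in Cpeb4-/- by 0.48 ± 0.10 (SE, adjusted p = 0.013), Cd14, a coreceptor for LPS, by 0.32 ± 0.05 (adjusted p = 0.0041), Fcgr1 by 0.26 ± 0.05 (adjusted p = 0.012) and Cd68 by 0.15 ± 0.03 (adjusted p = 0.017), while the integrin gene Itgam was higher by 0.19 ± 0.06 (adjusted p = 0.05, just under the threshold). Of the dendritic cell list, Itgax, which encodes CD11c, was higher by 0.41 ± 0.13 (adjusted p = 0.05, just under the threshold). Clec9a was higher by 0.52 ± 0.09 (adjusted p = 0.0084) and Zbtb46 by 0.36 ± 0.10 (adjusted p = 0.031), both at means near 3, while Xcr1 was lower by 0.60 ± 0.11 (adjusted p = 0.0082). Of the B cell list Cd79b was lower by 0.35 ± 0.10 (adjusted p = 0.035). The summed T cell list, of which Cd4 and Lck are the members that passed, was 314 to 412 in WT and 254 to 290 in Cpeb4-/- at 6 hr, without overlap. The plasmacytoid dendritic cell list, of which Tcf4 is the main term, did not overlap at 6 hr either (9090 to 10500 against 7530 to 8220) and was higher in Cpeb4-/- at 9 hr (4260 to 4350 against 4510 to 4930). Summed neutrophil and fibroblast lists overlapped at 6 and 9 hr. The part of these markers in the class II differences was not tested. In such bulk libraries a larger share of class II-bearing cells and more class II mRNA per cell cannot be told apart.

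The second comparison asks how LPS changed these mRNAs within each genotype. On the deposited scale the 3 chain genes and Cd74 rose within 1 hr in both genotypes, by 1.33 to 1.54-fold, were highest at 3 hr and were not called different from untreated at 9 hr, except for H2-Ab1, which was still 1.42-fold higher in WT and 1.35-fold in Cpeb4-/-. Ciita and H2-DMa fell by 6 hr. In WT, 4 members were called higher and 0 lower at 1 hr and likewise at 3 hr, where 19.4% and 33.5% of the 13103 genes tested were called higher and 18.3% and 36.4% lower. At 6 hr 3 were higher and 2 lower (backgrounds 39.7% and 40.2%), and at 9 hr 1 was higher and 3 lower (backgrounds 37% and 36.6%). In Cpeb4-/-, the counts were 4 and 0 at 1 hr (backgrounds 22.6% and 19.4%), 5 and 1 at 3 hr (33.7% and 36.2%), 3 and 2 at 6 hr (38.4% and 39.5%) and 1 and 3 at 9 hr (35.7% and 35.6%). At 6 and 9 hr the members called higher or lower were thus a share of the order of the background. At 1 hr 4 of 7 were higher and none lower on the deposited scale, which did not hold in full on another scale (below).

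H2-Ab1 rose most: by 0.62 ± 0.15, 0.78 ± 0.15, 0.71 ± 0.15 and 0.51 ± 0.15 after 1, 3, 6 and 9 hr in WT (limma, adjusted p = 0.00096, 2.1e-05, 6.4e-05 and 0.0028). In Cpeb4-/- its changes were 0.52 ± 0.15, 0.78 ± 0.15, 0.68 ± 0.15 and 0.43 ± 0.15, and at each time it was higher than untreated in 4 of 4 mice of both genotypes. Cd74 rose by 0.68 ± 0.13 at 3 hr in WT and 0.66 ± 0.13 in Cpeb4-/- (adjusted p = 2.5e-05 and 3.4e-05), H2-Aa by 0.54 ± 0.15 and 0.52 ± 0.15 (adjusted p = 0.0015 and 0.0021) and H2-Eb1 by 0.56 ± 0.16 and 0.53 ± 0.16 (adjusted p = 0.002 and 0.0033). At 9 hr H2-Aa was at −0.02 ± 0.15 in WT and −0.12 ± 0.15 in Cpeb4-/- from untreated, and H2-Eb1 at −0.11 ± 0.16 and −0.15 ± 0.16, none of them called. With the mouse as a block 3 further changes of these 4 genes passed: H2-Eb1 at 6 hr in WT (adjusted p = 0.0079) and in Cpeb4-/- (adjusted p = 0.022), and Cd74 at 9 hr in WT (0.27, adjusted p = 0.014).

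These rises depend on how the libraries are scaled to each other. After quantile normalization, which gives all libraries the same distribution of values, H2-Aa, H2-Eb1 and Cd74 at 6 hr changed direction in both genotypes, to −0.06, −0.03 and −0.29 in WT and −0.19, −0.17 and −0.21 in Cpeb4-/-, and Cd74 at 9 hr to −0.37 and −0.41. H2-Ab1 kept its direction at all times but with smaller rises, of 0.45, 0.35, 0.13 and 0.15 in WT and 0.32, 0.30, 0.05 and 0.02 in Cpeb4-/-. At 1 hr in WT, H2-Ab1 and H2-Eb1 (0.43) were still called higher (limma, adjusted p = 0.016 and 0.036). H2-Aa (0.30) and Cd74 (0.16) were not (adjusted p = 0.11 and 0.3). In Cpeb4-/- no rise stayed called at any time. At 3 hr Cd74 was at 0.06 in WT and 0.09 in Cpeb4-/- (adjusted p = 0.68 and 0.54). WT had 17 LPS calls as deposited (12 higher, 5 lower) and 12 after quantile normalization (4 higher, 8 lower), of which 8 were called in the same direction on both scales. Cpeb4-/- had 19 (13 higher, 6 lower) and 9 (0 higher, 9 lower), of which 5 were called in the same direction on both. Of the calls made only after quantile normalization, those of H2-Aa (−0.49, adjusted p = 0.0038) and H2-Eb1 (−0.45, adjusted p = 0.016) at 9 hr in Cpeb4-/- were lower than untreated. Those of H2-DMb1 at 6 hr were too (limma, adjusted p = 0.012 in WT, 0.03 in Cpeb4-/-). Cd74 in WT at 6 hr was called higher as deposited (adjusted p = 4.3e-05) and lower after quantile normalization (adjusted p = 0.031). At 9 hr Cd74 was called lower after quantile normalization alone, in WT (adjusted p = 0.0068) and in Cpeb4-/- (adjusted p = 0.0031). Ciita at 3 hr in WT was called higher on that scale alone (0.41). On the deposited scale 2642 tested genes had a mean rlog over all 40 libraries of at least 11, a limit chosen after the values were seen. Their median change was 0.11, 0.26, 0.44 and 0.32 at 1, 3, 6 and 9 hr in WT and 0.10, 0.24, 0.40 and 0.285 in Cpeb4-/-, where the medians of all genes lay between −0.025 and 0.025. LPS-treated libraries enter the mean that selects these genes, so genes raised by LPS reach the limit more readily. A positive median can thus be partly built in, and it does not show that abundant mRNAs as a class rose. The rises of H2-Aa and H2-Eb1 at 6 hr were below the median of the 2642 genes. The falls of Ciita at 6 and 9 hr held under both scalings, at −1.17 and −1.42 in WT and −1.91 and −1.86 in Cpeb4-/- after quantile normalization.

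**Figure D4:**
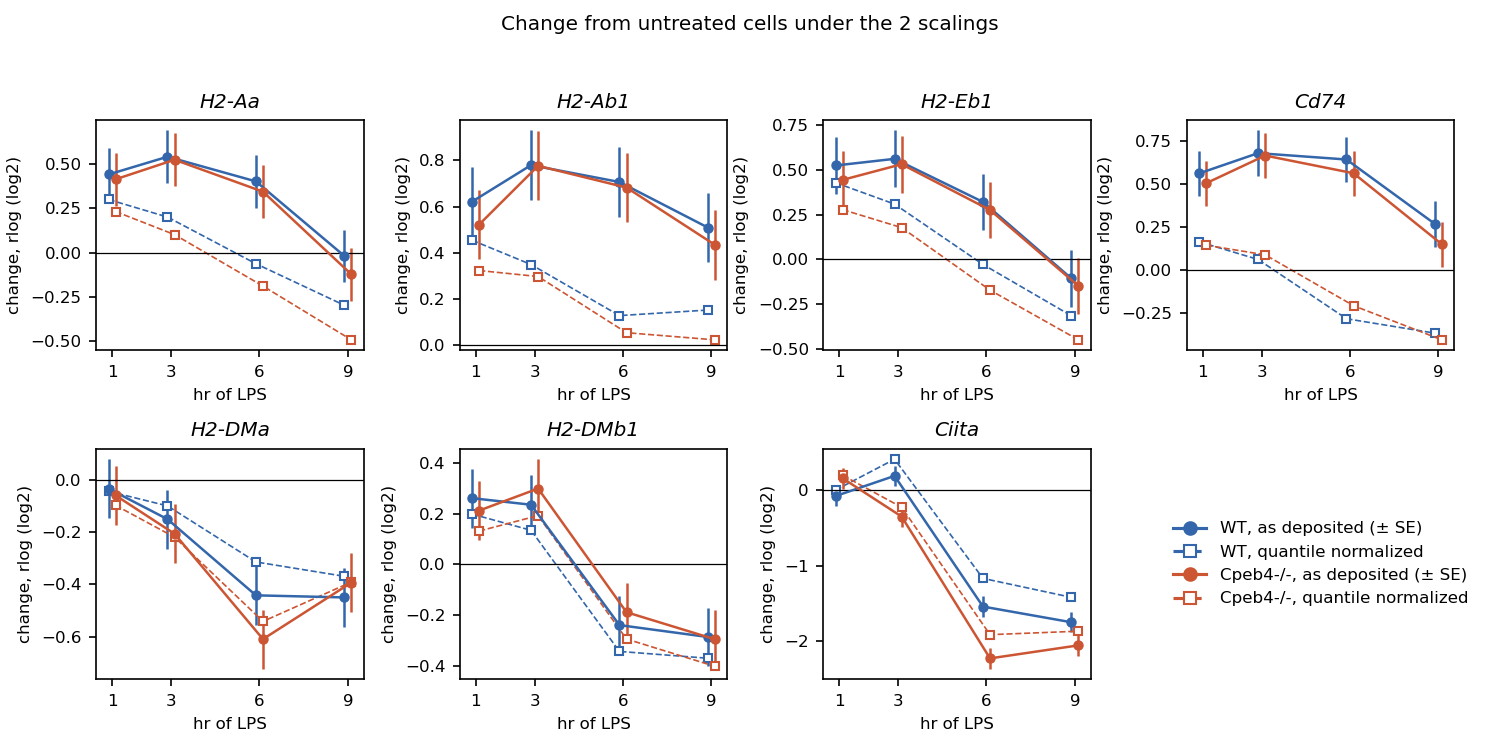
Change from untreated cells (y axis, rlog, log2 scale, a separate range per panel) at 1, 3, 6 and 9 hr of LPS (x axis) for the 7 genes in WT (blue) and Cpeb4-/- (red), as deposited (filled circles, ± SE of limma) and after quantile normalization (open squares, no error drawn). The squares of Cd74 cross 0 between 3 and 6 hr while its circles stay above it, whereas both scalings put Ciita and H2-DMa below 0 at 6 and 9 hr.

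H2-DMa and H2-DMb1 followed a course of their own. H2-DMa fell by −0.44 ± 0.11 at 6 hr and −0.45 ± 0.11 at 9 hr in WT (adjusted p = 0.00062 and 0.0006) and by −0.61 ± 0.11 and −0.39 ± 0.11 in Cpeb4-/- (adjusted p = 9e-06 and 0.0024), in 4 of 4 mice each, under both scalings. H2-DMb1 changed by 0.24 ± 0.12 at 3 hr in WT and 0.30 ± 0.12 in Cpeb4-/-, of which only the Cpeb4-/- rise was called (adjusted p = 0.069 and 0.021), and the difference between them was not (interaction 0.07 ± 0.16). The Cpeb4-/- call at 3 hr was lost after quantile normalization (0.19, limma, adjusted p = 0.16) and without mouse 3 or mouse 62. At 9 hr H2-DMb1 had fallen by −0.29 ± 0.12 in WT and −0.30 ± 0.12 in Cpeb4-/- (adjusted p = 0.026 and 0.023). Both 9 hr calls held after quantile normalization. The WT call was lost without mouse 87 or 88 or with WT libraries fitted alone, and the Cpeb4-/- call without mouse 3, 55 or 62. With the mouse block H2-DMb1 was also called higher at 1 hr in both genotypes (adjusted p = 0.012 in WT, 0.036 in Cpeb4-/-) and at 3 hr in WT (adjusted p = 0.013, beside 0.002 in Cpeb4-/-), lower at 6 hr in both (adjusted p = 0.01 and 0.04), and H2-DMa lower at 3 hr in Cpeb4-/- (adjusted p = 0.029). At 3 hr Ciita was lower than untreated in 4 of 4 Cpeb4-/- mice (−0.35 ± 0.14, adjusted p = 0.02) and higher in 3 of 4 WT mice (0.19 ± 0.14, adjusted p = 0.22), and the difference between these changes was not called. After quantile normalization the Cpeb4-/- value was no longer called (−0.23, adjusted p = 0.13) and the WT rise was (0.41, adjusted p = 0.0078), and the Cpeb4-/- call was also lost without mouse 2 or mouse 62.

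How far the members vary together was described by correlations over the 40 libraries, which come from 8 mice and share their scaling. Once the mean of each genotype and time was removed, H2-Aa, H2-Ab1, H2-Eb1 and Cd74 correlated with each other at r = 0.94 to 0.98, and H2-DMa or H2-DMb1 with these 4 at 0.79 to 0.92. Ciita correlated with the 4 at 0.14 to 0.32 and with H2-DMa and H2-DMb1 at 0.05 and 0.01. Without removal of group means Ciita correlated with the 4 at −0.03 to 0.44 but with H2-DMa and H2-DMb1 at 0.78 and 0.73.

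Among the 13103 genes compared, the 5 with the profile most like that of Ciita over the 40 libraries were Raph1 (r = 0.967), Ankrd13b (0.965), Eps8 (0.963), Glce (0.962) and the glucose transporter gene Slc2a3 (0.961). With group means removed they were Dchs1 (0.768), Oxct1 (0.755), Mfsd12 (0.741), Myo1f (0.737) and Plekho2 (0.721). The mean profile of the other 6 members was most like that of Fabp4 (0.786), a fatty acid-binding protein gene, Hnrnpc (0.774), S100a10 (0.768), Snrnp40 (0.76) and Ift43 (0.728). With group means removed it was most like that of Sdf2l1 (0.874), Itm2c (0.851), the inhibitory receptor gene Cd300a (0.823), Sdhb (0.807) and Rilpl2 (0.804).

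The rest of the pathway was read from lists of 36 symbols, alternative spellings included, of which 33 are in the table and 31 passed the filter on low expression. Between genotypes it showed 12 calls over the 5 times, 3 higher and 9 lower in Cpeb4-/-. Most fell at 6 hr, with 2 of 30 tested genes higher and 5 lower, where 6.4% and 9.92% of all genes were, and at 9 hr, with 1 of 31 higher and 2 lower (backgrounds 4.69% and 3.22%). These shares are near the background. The median difference of the pathway genes was between −0.06 and 0.08 at each time. The promoter-binding factors Rfx5, Rfxap, Rfxank, Nfya, Nfyb, Nfyc and Creb1 gave 0 calls between genotypes at any time. Spi1, which encodes the macrophage transcription factor PU.1, was lower in Cpeb4-/- BMDMs at 6 hr (−0.19 ± 0.05, limma, adjusted p = 0.018) and 9 hr (−0.30 ± 0.08, adjusted p = 0.043). Il10, which encodes a cytokine that restrains antigen presentation, had the largest difference of its list at 6 hr (−0.78 ± 0.08, adjusted p = 0.00012). Cd83, whose product protects surface class II from degradation, was lower at 3 hr (−0.25 ± 0.05, adjusted p = 0.034) and 6 hr (−0.48 ± 0.10, adjusted p = 0.0059). With all 40 libraries in one fit the calls numbered 31, and 32 with the mouse as a block, 14 higher and 18 lower.

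In response to LPS most inducers and repressors of Ciita rose. All 12 of them, among them Irf1, Irf8, Spi1, Prdm1, Socs1 and Il10, were called higher at 3 hr in both genotypes, with a median change of 0.96 in WT and 1.04 in Cpeb4-/-, where 33.5% and 33.7% of all genes were. Irf1, which activates Ciita downstream of interferon gamma, had the largest change at 1 hr in WT (2.62 ± 0.05, adjusted p = 1.3e-30), and Prdm1, a repressor of Ciita, in Cpeb4-/- (2.63 ± 0.08, adjusted p = 8.5e-25). Both rose in the other genotype by similar amounts, Irf1 by 2.565 in Cpeb4-/- and Prdm1 by 2.467 in WT. No interaction of the 12 genes was called at 1 hr, where 0.00763% of all genes were called lower and 0% higher. Socs1, the feedback inhibitor of interferon signalling, had the largest at 3, 6 and 9 hr, with 4.39 ± 0.08 in WT and 4.09 ± 0.08 in Cpeb4-/- at 3 hr. At 6 hr, when Ciita was down, 10 of the 12 were higher and 1 was lower in each genotype, against 39.7% (WT) and 38.4% (Cpeb4-/-) of all genes higher.

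Genes that act on class II molecules after transcription changed with LPS as well. March1, a ubiquitin ligase that removes class II from the cell surface, was up by 2.39 ± 0.08 at 6 hr in WT and 2.22 ± 0.08 in Cpeb4-/- (adjusted p = 2.8e-24 and 2.8e-23), and Cd83 had its largest change at 1 hr (3.58 ± 0.09 and 3.45 ± 0.09). Of the 6 processing genes, Sppl2a, the protease that clears the last fragment of the invariant chain from membranes, changed most, by 1.67 ± 0.08 at 6 hr in WT and 1.52 ± 0.08 in Cpeb4-/-. Among promoter-binding factors Creb1 had the largest change at 3 hr (0.81 ± 0.06 in WT) and Rfxap, a subunit of the RFX complex, at 6 hr, when it was lower by 0.77 ± 0.05 in WT and 0.56 ± 0.05 in Cpeb4-/-. Of the other class II chain and DM/DO genes 3 passed the filter, and H2-DMb2 fell by 1.12 ± 0.22 at 6 hr in WT and 1.30 ± 0.22 in Cpeb4-/-, while H2-Ob, a subunit of DO, which restrains DM, rose by 0.77 ± 0.13 at 9 hr in WT and 0.77 ± 0.13 in Cpeb4-/-. H2-Oa, the other DO subunit, was lower in Cpeb4-/- at 0 hr (−0.85 ± 0.16, adjusted p = 0.034). This gene was weakly expressed, with untreated means (WT 3.10, Cpeb4-/- 2.24) near the filter's limit of the log2 of 5. No genotype difference of H2-Oa was called at 1, 3, 6 or 9 hr. By 9 hr the Cpeb4-/- mean was the higher one (2.93 against 2.68). The H2-Oa change from 0 to 9 hr differed between genotypes (interaction 1.11 ± 0.28, limma, adjusted p = 0.029).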

How the data were processed

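Poly(A) RNA of 40 BMDM cultures from 8 mice was sequenced. The authors aligned reads to mm10 with STAR 2.3.0e, counted them per gene with featureCounts and deposited 1 table of DESeq2 rlog values, a log2 scale adjusted for library size. No counts or depths were used here, so p-values rest on the spread between mice, and the depth behind a value is unknown. Handling of multi-mapping reads is not given in the sources used here.

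Samples were grouped by the labels' genotype and time. Genes whose mean rlog reached the log2 of 5 were fitted with limma 3.58.1 (R 4.3.3; statmod 1.5.0 for blocks; empirical Bayes with a mean-variance trend), and p-values were adjusted over all genes tested by the Benjamini-Hochberg method with a threshold of 0.05. Genotypes were compared at each time over 8 libraries and on mouse means over 5 times, and LPS changes and their interaction with genotype in 1 fit of 40 libraries. A difference is Cpeb4-/- minus WT, or LPS minus untreated. Marker and pathway genes were tested in the same fits. The 7 members, the gene lists and the rule for named genes (all members, the largest LPS change in each pathway list, pathway genes called at 2 times or more, and the 5 most alike genes) were chosen with earlier results of these data known. Il10, H2-Oa, Ifi30 and the genotype difference of Socs1 were named after their values were seen.

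On simulated data the fit recovered 96% of log2 changes of 1 and 74.7% of log2 changes of 0.5 between genotypes at 6 hr (13075 genes), and 99% and 80.8% for 3 hr against untreated in WT (13092 genes). Each comparison gave 8 false calls. The simulated noise was independent between libraries and genes, without the mouse effects of the real libraries, so these rates are not the power of this design. Alternatives were quantile normalization, other filters, eBayes settings, sample sets, a batch term, a mouse block and leaving out each mouse. The labels give the same mouse number at all 5 times, so libraries of 1 mouse are paired across times. Their deviations from group means correlated with a median r of 0.29 over 80 pairs of times (68 above 0.1, lowest −0.194), against −0.0907 for different mice of a genotype. Genes were located with GENCODE M21 (GRCm38), and promoter windows came from RefSeq (GRCm38.p6). Levels per kilobase subtract the log2 length of the longest principal transcript. Python 3.11.15, pandas 2.3.3, numpy 2.4.6 and matplotlib 3.10.9 were used for summaries and plots.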

Additional observations from a re-analysis of the deposited data

Results flagged for a closer look

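In 2 of the 70 groups of 4 libraries examined (7 genes, 2 genotypes, 5 times), 1 library stood apart from the others by Dixon's criterion, which chance alone does in about 1 of 20 groups. Cd74 at 9 hr was at 14.23 in Cpeb4-/- mouse 3, while the other Cpeb4-/- mice lay between 14.50 and 14.53. H2-DMb1 at 9 hr was at 9.69 in WT mouse 25, while the other WT mice lay between 9.78 and 9.80. The change of Ciita from 0 to 6 hr differed between genotypes by a test of the difference itself, with an interaction of −0.684 on the log2 scale (limma, adjusted p = 0.04).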

How the results depend on the processing

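The 14 calls of members between genotypes became 1 without the filter on low expression, 6 without the mean-variance trend, and 6 to 15 when single mice were left out. They were 12 after quantile normalization, 11 with batch as a term and 16 with all 40 libraries in one fit. The 6 calls on mouse means became 3 without the filter and 3 to 6 on leaving out single mice. The 1 interaction call became 0 without the filter, and 0 or 1 on leaving out mice. The LPS calls were 17 in WT (16 to 18 on leaving out mice) and 19 in Cpeb4-/- (13 to 20, with 13 without Cpeb4-/- mouse 3 or 62), and 9 in Cpeb4-/- after quantile normalization. The 12 pathway calls between genotypes became 5 without the filter, 7 without the trend, 31 in one fit of all libraries, and 6 to 17 on leaving out mice (6 without Cpeb4-/- mouse 3 or WT mouse 87, 7 without WT mouse 25). The pathway's 94 LPS calls were 86 to 95 in WT and 87 to 95 in Cpeb4-/-. Without the filter more weakly expressed genes enter the trend and the adjustment. The causes of the shifts in this paragraph were not tested.

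Quantile normalization reversed LPS changes of H2-Aa at 6 hr (−0.063 in WT, −0.189 in Cpeb4-/-), H2-Eb1 at 6 hr (−0.028 and −0.171) and Cd74 at 6 hr (−0.286 and −0.21) and 9 hr (−0.37 and −0.409). Leaving out single mice turned values near 0 that were not called, over these ranges: H2-Aa (−0.081 to 0.111) and H2-Eb1 (−0.19 to 0.031) at 9 hr in WT, both positive without mouse 87, Ciita between genotypes at 6 hr (−0.04 without WT mouse 87, −0.026 without 25, up to 0.146), Ciita at 1 hr in WT (−0.167 to 0.024, positive without mouse 88), H2-DMa at 1 hr in Cpeb4-/- (−0.106 to 0.014, positive without mouse 55) and H2-DMb1 between genotypes at 1 hr (−0.062 without WT mouse 69, −0.012 without 25, up to 0.147).

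With the mouse as a block (the replicate pairing across times), members had 20 calls between genotypes, 22 LPS calls in WT and 23 in Cpeb4-/-, and 1 interaction call, and pathway genes 32 calls between genotypes. Beside the calls named in the results, the block changed no other call of a member.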
